A study of Mus musculus with 2 samples.

Results

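The S100 proteins and the annexins, both families of calcium-responsive proteins, were compared between the aortic arch, where atherosclerosis starts early, and the thoracic aorta, which resists it, in mice. Members were the gene spots of a whole-genome array whose gene name in the scanner files was an S100a gene with a number, S100b, S100g, S100z, S100pbp or a numbered Anxa gene. The rule used names alone and no measured value, but members were chosen with earlier results of these data known. It found 27 genes, of which 15 were S100 genes and 12 were annexins, on 41 of 41534 gene spots; no spot carried the name S100z or S100pbp. Of these, 26 genes (14 S100 genes and 12 annexins) were among the 22811 genes bright enough to compare. The gene left out was S100a7a, a relative of the skin protein psoriasin that the files call by its older name S100a15; its signal was not well above background in either RNA.

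Both RNAs came from the same 6 apoE-/- mice (3 males and 3 females, 16 weeks old), which lack apolipoprotein E and develop atherosclerosis; every RNA compared here came from this genotype. The arch RNA, labelled prone, came from the aortic root, the arch and the adjoining 2 mm of thoracic aorta. The thoracic RNA, labelled resistant, came from the following 6 mm. The vessels had been perfused with Triton X-100, meant to strip the endothelium and leave smooth muscle as the cell type of interest, and RNA of the 6 mice was pooled per segment. The pair of pools was hybridised on 2 arrays with the dyes exchanged: arch in Cy3 and thoracic in Cy5 on array 1, and the reverse on array 2. Both arrays therefore measure the same 2 pools and count as 1 replicate. Every ± below is the SD between these 2 technical arrays (n = 2). It covers labelling and hybridisation, and not the spread between mice, so no p-value was computed.

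S100 proteins are small proteins with EF-hand calcium sites that act inside cells on the cytoskeleton and on enzymes, and several of them are released and bind pattern-recognition receptors such as RAGE (Ager) and the toll-like receptors. Annexins bind acidic phospholipids of membranes in the presence of calcium and serve in membrane repair, vesicle traffic, coagulation and the restraint of inflammation. The families meet in fixed complexes, of which S100A10 with annexin A2 is the best known. In the arterial wall, S100A8 and S100A9 are known as proteins of infiltrating neutrophils and monocytes, and S100A4 as a protein of smooth muscle cells that have left the contractile state.

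Sequences upstream of the start were found for 22 of the 27 genes in the RefSeq table of assembly GRCm38.p6. Those of the annexin with the highest arch over thoracic ratio (Anxa8) and of the 4 S100 genes with the highest ratios are printed here, because these 5 genes carry much of what follows. Each is the stretch of 250 bases before the annotated start, 5′ to 3′ on the strand of the gene. The positions are chr14:34085729-34085978 (plus strand), chr3:90668821-90669070 (plus strand), chr3:90695722-90695971 (minus strand), chr3:90603520-90603769 (plus strand) and chr3:90612644-90612893 (plus strand). Capitals mark matches to 3 motifs: the TATA box letters TATAAA on the gene strand, the AP-1 letters TGANTCA on both strands, and the GC box letters GGGCGG on both strands; no marked match overlaps another.
Anxa8: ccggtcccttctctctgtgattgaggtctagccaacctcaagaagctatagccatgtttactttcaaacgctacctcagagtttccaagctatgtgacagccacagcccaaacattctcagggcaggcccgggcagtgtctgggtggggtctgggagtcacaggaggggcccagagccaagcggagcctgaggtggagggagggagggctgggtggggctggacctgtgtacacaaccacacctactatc
S100a8: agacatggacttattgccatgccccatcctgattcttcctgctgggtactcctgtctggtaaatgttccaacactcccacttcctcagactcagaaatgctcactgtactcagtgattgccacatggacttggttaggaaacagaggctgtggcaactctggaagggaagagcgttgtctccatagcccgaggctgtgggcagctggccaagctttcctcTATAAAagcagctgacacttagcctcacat
S100a9: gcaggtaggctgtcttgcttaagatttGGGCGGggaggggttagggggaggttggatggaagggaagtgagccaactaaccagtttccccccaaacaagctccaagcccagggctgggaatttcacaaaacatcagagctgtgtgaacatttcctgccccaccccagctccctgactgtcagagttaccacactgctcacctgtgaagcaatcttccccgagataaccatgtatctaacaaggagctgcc
S100a4: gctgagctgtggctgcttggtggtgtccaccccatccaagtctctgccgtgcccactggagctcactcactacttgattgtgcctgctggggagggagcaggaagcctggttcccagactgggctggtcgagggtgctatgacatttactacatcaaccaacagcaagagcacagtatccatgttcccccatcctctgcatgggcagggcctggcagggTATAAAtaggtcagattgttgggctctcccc
S100a6: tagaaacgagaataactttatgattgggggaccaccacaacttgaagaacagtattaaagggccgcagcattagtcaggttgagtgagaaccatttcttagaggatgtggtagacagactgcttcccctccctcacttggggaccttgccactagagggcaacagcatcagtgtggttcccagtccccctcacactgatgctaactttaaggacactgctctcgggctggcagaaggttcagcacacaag

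S100a8 and S100a4 each hold a TATAAA, starting 30 and 31 bases before the start. Among the 22 members with a sequence, 5 hold these letters (22.7%: Anxa1, Anxa10, Anxa2, S100a4 and S100a8), against 7.59% of 32851 promoter windows of that length. The AP-1 letters were present in 3 of the 22 (13.6%: Anxa10, Anxa2 and S100a11), against 6.75% of all windows, and in none of the 5 printed. The GC box letters were present in 5 of the 22 (22.7%), against 32.7% of all windows, and within the printed set in S100a9 alone, 223 bases before the start. Members were counted by the first window listed for each gene, the background by every window. These matches describe letters and are no measurement of factor binding.

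Across both families the differences between arch and thoracic were small. The median log2 ratio of arch over thoracic was 0.08 over the 14 S100 genes, with 9 of 14 above 0, and 0.12 over the 12 annexins, with 10 of 12 above 0. The median over all genes compared was -0.01, with 47.3% above 0. On the plus side on both arrays were 15 of 26 members (57.7%), against a background of 32.4% of all genes, and 5 of 26 (19.2%) were on the minus side on both, against 35.2%. Without loess normalisation 5 of 26 members were on the plus side on both arrays (19.2%, against 16.5% of all genes), a share near the background. On the minus side on both was 1 of 26, a lower share than the 4151 of 22811 among all genes. The annexin median without loess was 0.04. No member met the 2-fold rule, which asks for a 2-fold difference in the mean of the arrays and for 1.5-fold, the same way, on array 1 and on array 2; the background of that rule was 0.473% of all genes for arch and 0.145% for thoracic. With the limit of 1.5-fold on both arrays alone, 1 of 26 members was called higher in arch (3.85%, against 1.2% of all genes) and 0 of 26 higher in thoracic (against 0.381%). A share of 1 in 26 is a single gene and says little about the families.

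**Figure D1:**
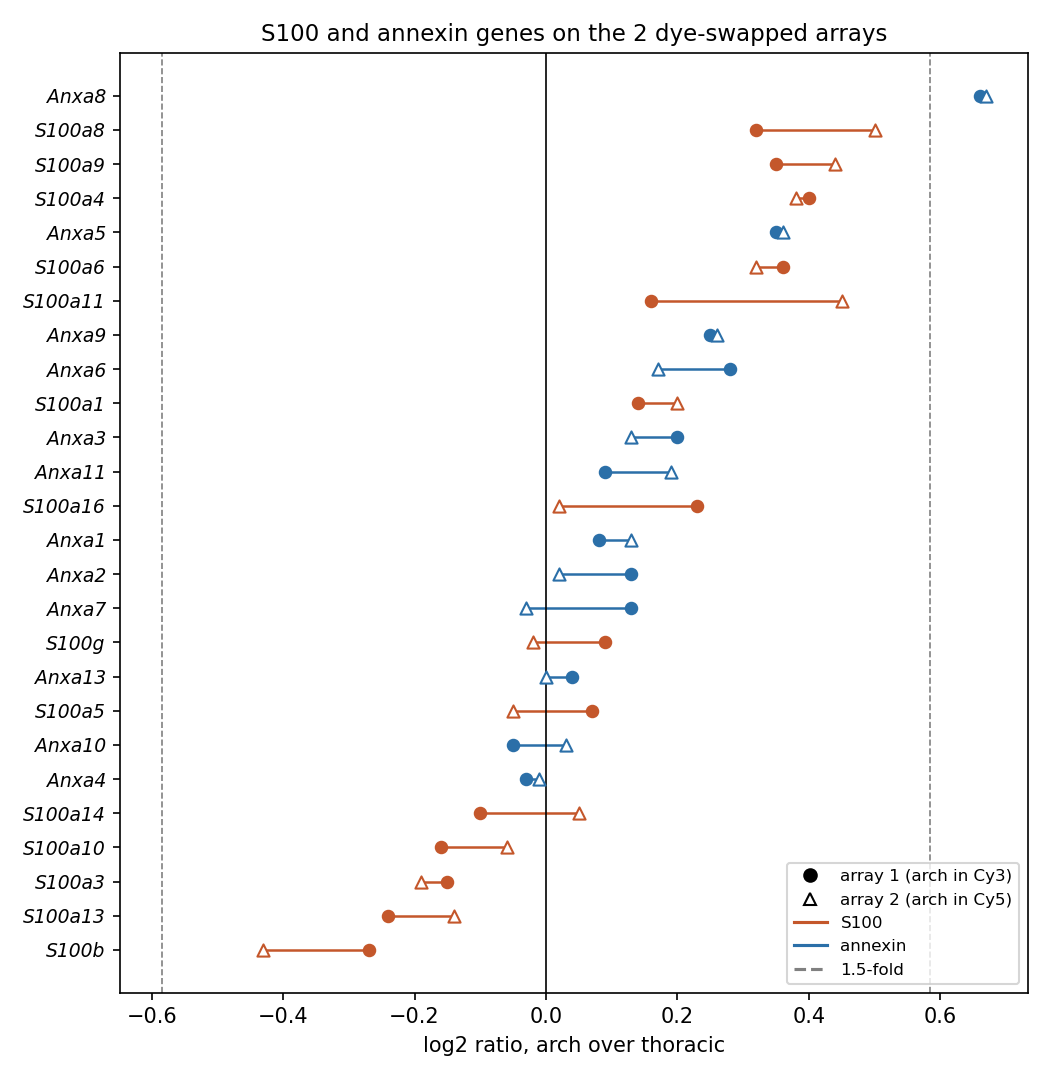
Each row is 1 gene, the horizontal axis the log2 ratio of arch over thoracic; filled circles are array 1, open triangles array 2, and dashed lines mark 1.5-fold. Anxa8 lies past 1.5-fold on both arrays at 0.66 and 0.67, and S100b is at the other end at -0.27 and -0.43.

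Anxa8, which encodes an annexin of late endosomes, was the member called higher in arch. Its normalised signal in the arch RNA was 768 on array 1 and 745 on array 2, and in the thoracic RNA 487 and 467. Both arch values lay above both thoracic values. The log2 ratio was 0.66 ± 0.01, or 1.59-fold, and 98.9% of the genes compared had a lower ratio. The same sequence was spotted 10 times on each array, and the 10 ratios lay between 0.60 and 0.70 on array 1 and between 0.62 and 0.71 on array 2, so every one of the spots was past 1.5-fold. In the deposited ratios of the scanner software it was 0.72, again the 1 member called at 1.5-fold, against 2.31% of all genes by those ratios; their 2-fold rule called 0 members, against 1.02%. Without loess the mean was the same, 0.66, but the arrays split to 0.42 and 0.90, so that array 1 no longer reached 1.5-fold and the call was lost.

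**Figure D2:**
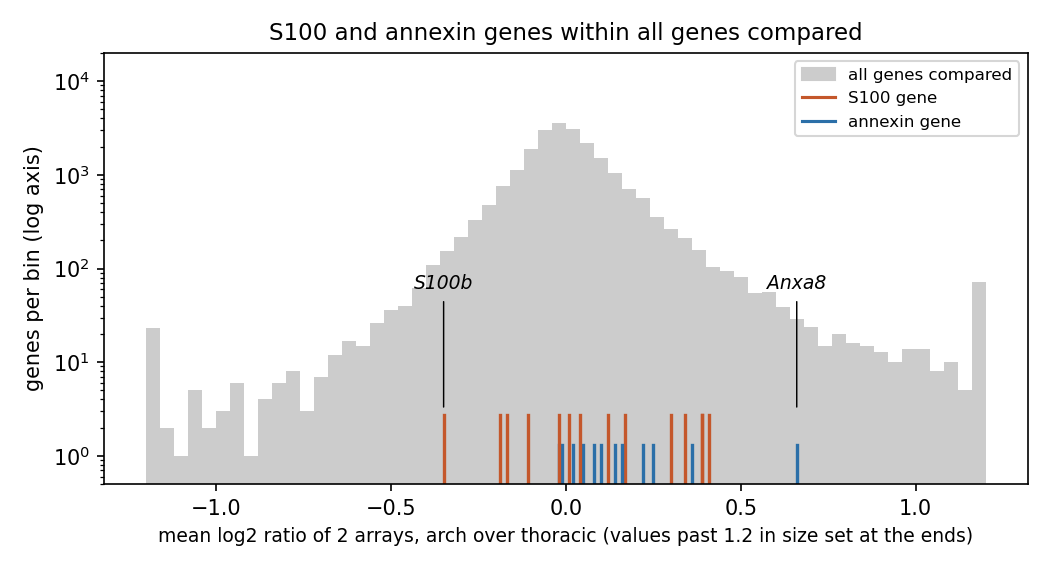
Grey bars count the 22811 genes compared by their mean log2 ratio (log vertical axis, values past 1.2 in size set at the ends); long ticks mark S100 genes and short ticks annexins. Members spread from -0.35 (S100b) to 0.66 (Anxa8), and 25 of the 26 lie short of 1.5-fold.

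Of the listed cell types other than smooth muscle, several had markers past 1.5-fold higher in arch, and others had none. Of 8 markers of mesothelium, the serous lining of the chest cavity, 8 were past 1.5-fold higher in arch, with a median log2 ratio of 1.37 and a summed signal of 8293 and 7788 in arch against 3129 and 3023 in thoracic. Of 8 endothelial markers, 4 were past 1.5-fold, with a median of 0.63 and a summed signal of 2221 and 2222 against 1320 and 1279. Fibroblast markers had a median of 0.81 over the 7 unsaturated ones (4 of 8 past 1.5-fold), heart muscle markers 1.06 (5 of 9) and cartilage markers 0.71 (4 of 7). The part of these cells in the value of Anxa8 was not tested. In pooled tissue RNA, more cells of a type and more RNA per cell cannot be told apart. A summed signal adds up different probes and is ruled by the brightest, so it is set side by side only between the RNAs. Of 9 smooth muscle markers, 0 were past 1.5-fold and 3 were saturated; the 6 unsaturated ones had a median of 0.03 and a summed signal of 79670 and 82919 in arch against 87950 and 86520 in thoracic.

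Among the S100 genes known from inflammation, S100a8 and S100a9 were both somewhat higher in arch. They encode the subunits of calprotectin, the calcium- and zinc-binding complex of neutrophils and monocytes. S100a8 had a signal of 258 and 267 in arch and of 207 and 189 in thoracic. S100a9 had a signal of 899 and 893 in arch and of 707 and 657 in thoracic. For each gene the arch values lay above the thoracic ones on both arrays, with no overlap. The log2 ratio was 0.41 ± 0.13 for S100a8 (1.33-fold) and 0.39 ± 0.07 for S100a9 (1.31-fold), and neither reached 1.5-fold on either array. The difference between the subunits was 0.01 ± 0.06, with opposite signs on the arrays (-0.03 and 0.06), and so within the spread between arrays. S100a8 was at 0.54 in the deposited ratios, which carry no added offset. There it was at 0.43 on array 1 and at 0.64, past 1.5-fold, on array 2.

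Markers of the cells that make calprotectin were counted beside it. Of 12 neutrophil markers, 9 were bright enough to compare and 0 were past 1.5-fold. Their median log2 ratio was 0.10 over a range of -0.26 to 0.38. Their summed signal was 865 and 863 in arch and 828 and 815 in thoracic. Of the 9, 7 were well above background in both RNAs on both arrays. Single markers had signals of 63.5 to 122, beside negative control medians of 55.6 to 58.1, so that only large differences could have shown. The granule genes Ngp, Camp and Elane were not well above background in the same RNA on both arrays. Of 15 macrophage markers, 5 were past 2-fold higher in arch, and the log2 ratios ran from -0.14 to 4.09. No other macrophage marker was past 1.5-fold. The 14 unsaturated ones had a median of 0.30 and summed to 31152 and 30460 in arch and to 14179 and 14026 in thoracic. Much of the difference between these sums came from Cd5l, with 10133 and 9901 in arch and 560 and 620 in thoracic. The sums are therefore no measure of the amount of macrophage RNA. The part of macrophages in the values of S100a8 and S100a9 was not tested.

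The receptors for released S100 proteins had log2 ratios of -0.01 to 0.37. Of the 6 listed, 0 were past 1.5-fold and 4 were above 0, with a median of 0.19. Ager, which encodes RAGE, was near background, with signals of 74.5 and 74.8 in arch and 74.8 and 75.6 in thoracic. Tlr4 had signals of 827 and 860 in arch and 821 and 874 in thoracic, which overlap. Bsg, which encodes the S100A9-binding protein basigin, was the highest at 0.37 ± 0.25, with 0.55 on array 1 and 0.19 on array 2. Cd36 was at 0.20 ± 0.02, and a further probe of it gave 0.35.

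S100a4, S100a6 and S100a11, S100 genes tied to the cytoskeleton and to cell growth, were also higher in arch by less than 1.5-fold. S100A4 binds non-muscle myosin. Its gene gave a signal of 36268 and 35312 in arch and 27540 and 27221 in thoracic, a log2 ratio of 0.39 ± 0.02 (1.31-fold). S100A6, or calcyclin, binds the ubiquitin-ligase adaptor encoded by Cacybp. S100a6 had 33587 and 31726 in arch and 26082 and 25420 in thoracic, a log2 ratio of 0.34 ± 0.03 (1.27-fold). For both genes all arch values were above all thoracic values, and none of their spots was saturated. S100A11 is a partner of annexin A1. S100a11 had 4818 and 4788 in arch and 4316 and 3514 in thoracic, a log2 ratio of 0.30 ± 0.20 with 0.16 on array 1 and 0.45 on array 2, so its size differed between the arrays more than that of most genes (the SD between arrays was 0.06 at the median gene and 0.18 at the 95th percentile).

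The values of all 3 genes depended on the loess step. Without it S100a4 was at 0.16, S100a6 at 0.12 and S100a11 at 0.20, and each had opposite signs on the arrays (-0.24 and 0.56 for S100a4, -0.27 and 0.51 for S100a6, -0.27 and 0.68 for S100a11). Bright genes as a whole shifted too: for the 150 unsaturated genes with a mean signal of at least 20000, the median was 0.01 with loess and -0.22 without. In the deposited ratios, which were corrected between dyes by the scanner software, S100a4 was at 0.37 and S100a6 at 0.33. The part of fibroblasts, macrophages and the other listed cell types in the values of these 3 genes was not tested.

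**Figure D3:**
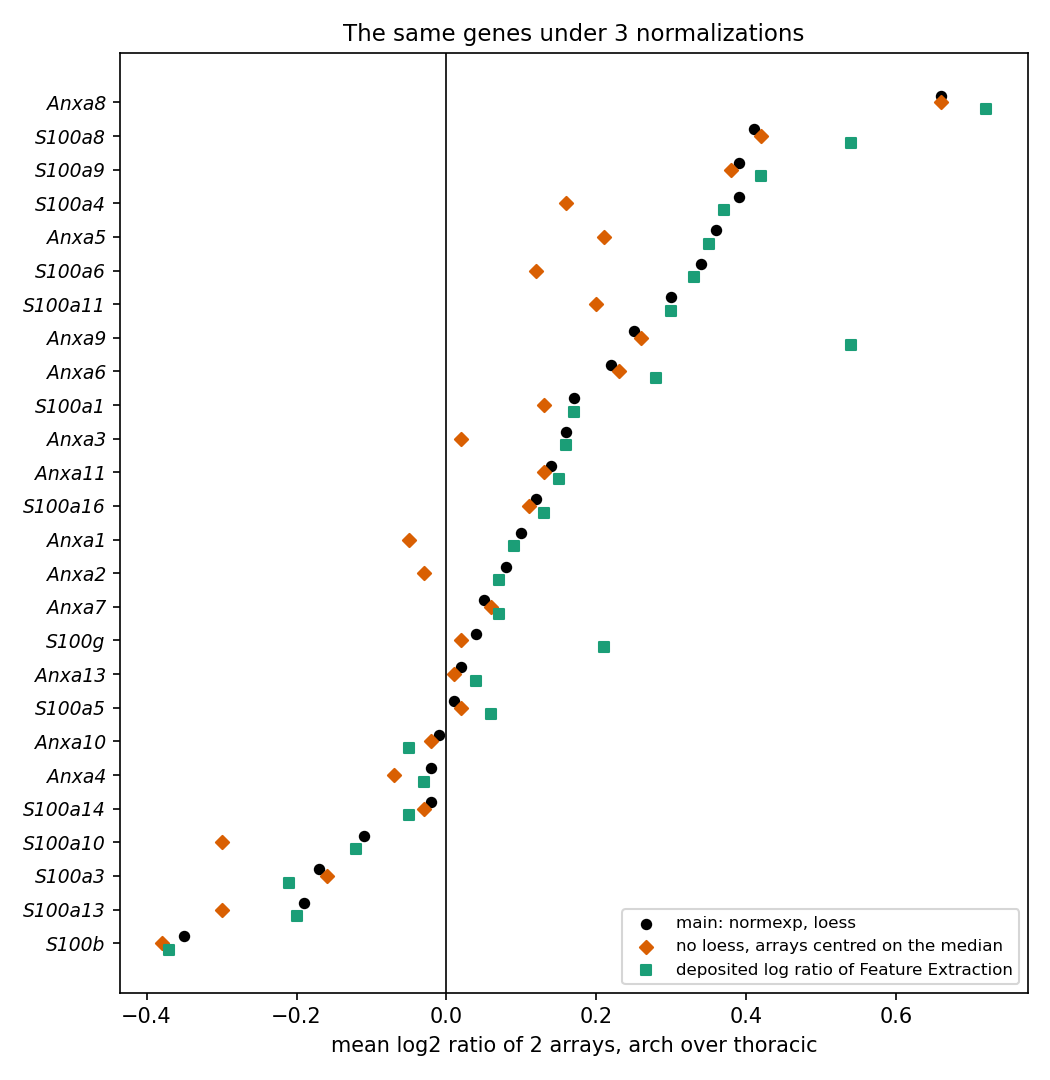
Each row is 1 gene, the horizontal axis its mean log2 ratio of arch over thoracic under 3 normalisations: circles with loess, diamonds without it, squares from the deposited ratios. Bright genes such as S100a4 (0.39 to 0.16), S100a6 (0.34 to 0.12) and S100a10 (-0.11 to -0.30) shift left without loess, and the dim Anxa9 (0.25 to 0.54) and S100g (0.04 to 0.21) shift right in the deposited ratios.

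S100a10 and S100a13 lay on the thoracic side. S100A10, or p11, has lost calcium binding and is held by annexin A2, with which it brings plasminogen and its activators together on the cell surface. S100a10 had a signal of 16821 and 17790 in arch and 18803 and 18517 in thoracic, a log2 ratio of -0.11 ± 0.07. S100A13 takes part in the unconventional release of fibroblast growth factor. S100a13 had 4411 and 4307 in arch and 5220 and 4745 in thoracic, a log2 ratio of -0.19 ± 0.07 (1.14-fold higher in thoracic). Arch values were below thoracic values on both arrays for each gene, without overlap. Without loess both had a mean of -0.30 but opposite signs on the arrays (-0.74 and 0.14 for S100a10, -0.68 and 0.09 for S100a13), so their direction was not shared by the arrays under that setting.

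The S100 genes tied to particular tissues held the lowest member. S100b, known from glia, Schwann cells and fat cells, had a signal of 1180 and 1037 in arch and 1425 and 1398 in thoracic. Both arch values were below both thoracic values, and the log2 ratio was -0.35 ± 0.11 (1.28-fold higher in thoracic); 1.85% of the genes compared were lower. It stayed under 1.5-fold on each array. Of 8 Schwann cell markers, 0 were past 1.5-fold, with a median of 0.04 and a summed signal of 14109 and 14655 in arch and 12948 and 13317 in thoracic. Of 6 fat cell markers, 4 were below 0 and 0 past 1.5-fold, and the 5 unsaturated ones had a median of -0.20 and summed to 26342 and 24801 in arch and 30877 and 32057 in thoracic. The part of fat or nerve tissue in the value of S100b was not tested.

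S100a1, which encodes a regulator of calcium handling in heart muscle, had a signal of 1737 and 1725 in arch and 1572 and 1502 in thoracic, a log2 ratio of 0.17 ± 0.04. Heart muscle markers were split: 5 of 9 were past 1.5-fold higher in arch, and the log2 ratios ran from -0.14 to 3.65. Their part in the value of S100a1 was not tested. S100a3, known from the hair cuticle, had 368 and 346 in arch and 407 and 396 in thoracic, a log2 ratio of -0.17 ± 0.03. S100a16, a widely expressed member, was at 0.12 ± 0.14, with 0.23 on array 1 and 0.02 on array 2, and so within the spread between arrays. S100a5 (0.01 ± 0.09), S100a14 (-0.02 ± 0.11) and S100g (0.04 ± 0.07), known from olfactory neurons, epithelia and gut, had signals of 65.1 to 106 in both RNAs and opposite signs on the arrays; the negative control spots had median signals of 55.6 to 58.1 on the same scale, 50 of which is a constant added to every spot.

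**Figure D4:**
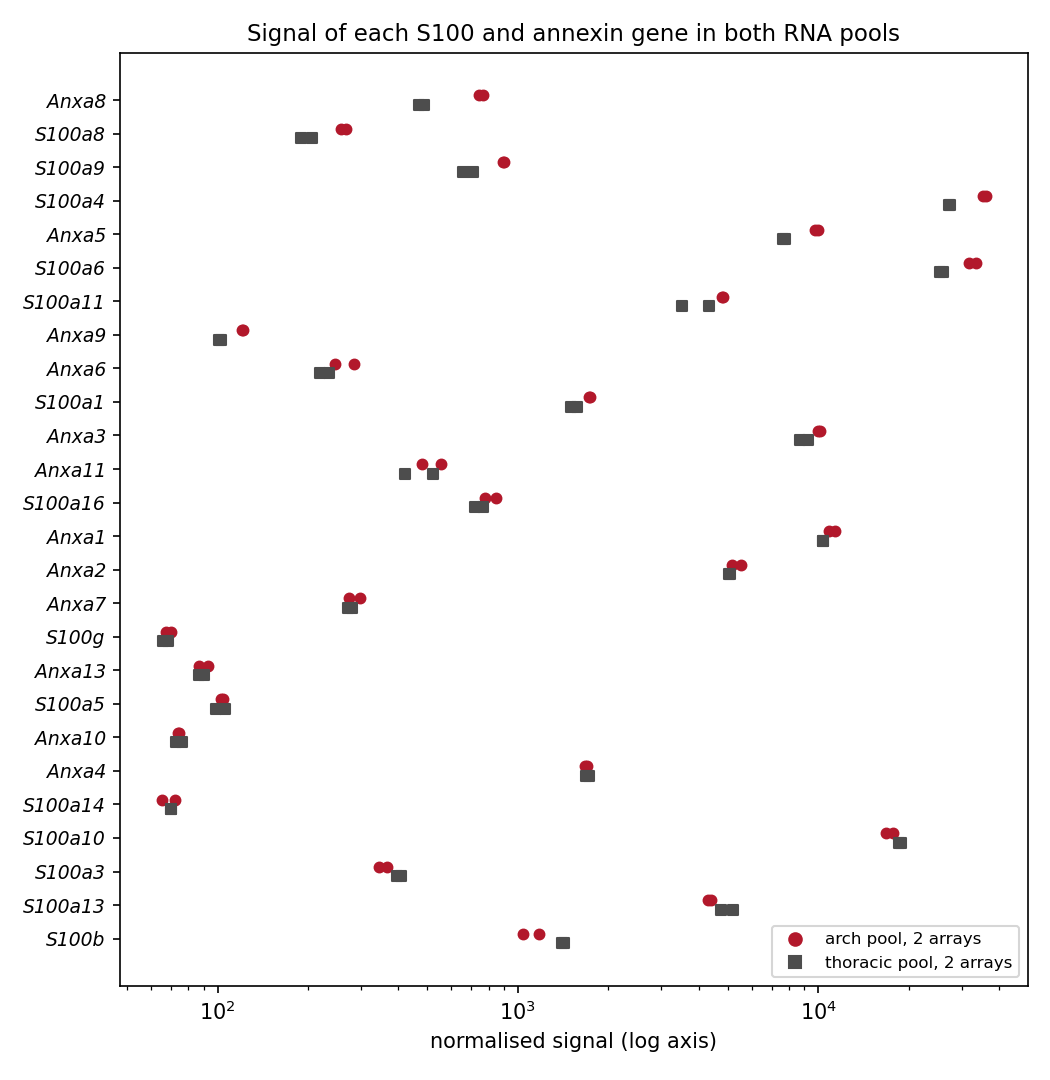
Each row is 1 gene, the horizontal axis its normalised signal on a log scale; red circles are the arch pool and grey squares the thoracic pool, each on 2 arrays. Circles and squares are apart for Anxa8 (745 and above against 487 and below) and overlap for genes such as Anxa4 and S100a5; signals of different genes come from different probes and are not to be compared.

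Among the annexins other than Anxa8, Anxa5 was the highest. Annexin A5 binds phosphatidylserine exposed on dying cells and platelets and is an anticoagulant. Its gene had a signal of 9734 and 9990 in arch and 7625 and 7778 in thoracic, without overlap, and a log2 ratio of 0.36 ± 0.01 (1.28-fold); without loess this was 0.21, with -0.15 on array 1 and 0.58 on array 2. Anxa9, an annexin that lacks working calcium sites, had 122 and 121 in arch and 103 and 101 in thoracic, a log2 ratio of 0.25 ± 0.01. At so dim a signal the added constant weighs on the ratio, and the deposited ratio, which has none, was 0.54.

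The remaining annexins lay close to 0. Anxa1 encodes the glucocorticoid-induced protein lipocortin, a ligand of formyl peptide receptors that ends neutrophil recruitment. It had a signal of 10893 and 11412 in arch and 10339 and 10408 in thoracic, a log2 ratio of 0.10 ± 0.04, which turned to -0.05 without loess. Its receptor genes Fpr1 and Fpr2 were at -0.01 ± 0.11 and 0.09 ± 0.07, and Fpr3 was not compared. Anxa2 had 5517 and 5166 in arch and 5031 and 5092 in thoracic, a log2 ratio of 0.08 ± 0.08, within the spread between arrays; its second probe gave 0.06, and without loess the ratio was -0.03. Anxa3 was at 0.16 ± 0.05 (0.02 without loess) and Anxa11 at 0.14 ± 0.07.

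Anxa6, an annexin with a duplicated core, had a signal of 284 and 247 in arch and 235 and 220 in thoracic, a log2 ratio of 0.22 ± 0.07, but its second, dimmer probe gave -0.04, so the probes disagree. Anxa4, an annexin of epithelia, was at -0.02 ± 0.01 with a second probe at 0.04, and Anxa7, or synexin, at 0.05 ± 0.12. The epithelial genes Anxa10 (-0.01 ± 0.06) and Anxa13 (0.02 ± 0.03) had signals of 72.5 to 92.7 in both RNAs, so that only large differences could have shown. The second probes of Anxa3 and Anxa13 did not pass the filter on dim probes.

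In the order of the 26 ratios, most neighbours could not be separated. The values of the arrays did not overlap between Anxa8 and S100a8 (a difference of 0.26), between S100a4 and Anxa5 (0.03) and between S100a13 and S100b (0.16). Every other pair of neighbours overlapped. The arrays' ratios correlated across the 26 members with Pearson's r of 0.88, and across all genes with 0.81; the points share both RNA pools, so this describes the repeatability of the hybridisation only.

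Genes whose proteins form complexes were set side by side. S100a10 minus Anxa2 was -0.19 ± 0.15 (-0.29 and -0.08 on the arrays), S100a11 minus Anxa1 was 0.20 ± 0.16 (0.08 and 0.31), and S100a6 minus Anxa11 was 0.21 ± 0.10 (0.28 and 0.13). Each difference had the same sign on both arrays. For the first 2 pairs its SD between arrays was nearly as large as the difference itself.

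Of 18 listed binding partners of S100 proteins and annexins, 16 were compared, 9 were above 0, 1 was past 1.5-fold, and the median was 0.01. The gene past the limit was Ahnak, which encodes a giant scaffold protein bound by the S100A10 and annexin A2 complex at the membrane. It had a signal of 1543 and 1491 in arch and 921 and 890 in thoracic, a log2 ratio of 0.74 ± 0.00 (1.68-fold), while a second, dimmer probe gave 0.28. Myof, the membrane repair gene myoferlin, is named after its values were seen; it had 0.66 ± 0.12 with 0.57 on array 2, just short of the limit, and its further probes gave 0.22 to 0.50. Cacybp, the partner of S100A6, was at -0.17 ± 0.05, Plat, the plasminogen activator that docks on S100A10, at 0.14 ± 0.05, and Pla2g4a, the phospholipase that annexin A1 restrains, at -0.22 ± 0.12.

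Other calcium-handling genes, taken from lists, had medians close to 0. Single genes ran from -0.03 to 0.23 among the calpains and from -0.26 to 0.19 in the calmodulin and EF-hand list. None of 4 calpain genes (median 0.10) and none of 10 compared genes of the calmodulin and EF-hand list (median -0.04) was past 1.5-fold. Of 6 listed epidermal genes in which an S100 domain is fused to a longer repeat protein, 3 were on the array and 0 could be compared. The 6 epidermal keratin and envelope markers had a median of -0.05 and 0 past 1.5-fold.

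On chromosome 3 of GRCm38.p6 lie 15 of the 27 members, and 13 of these are S100 genes. In the order of the annotation, S100a1, S100a13, S100a14, S100a16, S100a3, S100a4, S100a5, S100a6, S100a7a, S100a8 and S100a9 form a row interrupted by S100a2 alone, which is no member, and S100a11 and S100a10 lie next to each other further along. Some members close to each other in this order differed. S100a3 (-0.17 ± 0.03) and S100a4 (0.39 ± 0.02) have only S100a2 between them. S100a5 (0.01 ± 0.09) lies between S100a4 and S100a6 (0.34 ± 0.03), and S100a11 (0.30 ± 0.20) is next to S100a10 (-0.11 ± 0.07). S100a8 and S100a9 are adjacent and had like ratios, 0.41 ± 0.13 and 0.39 ± 0.07. Of the others, Anxa7, Anxa11 and Anxa8 share chromosome 14 at separate places, with 0.05 ± 0.12, 0.14 ± 0.07 and 0.66 ± 0.01.

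**Figure D5:**
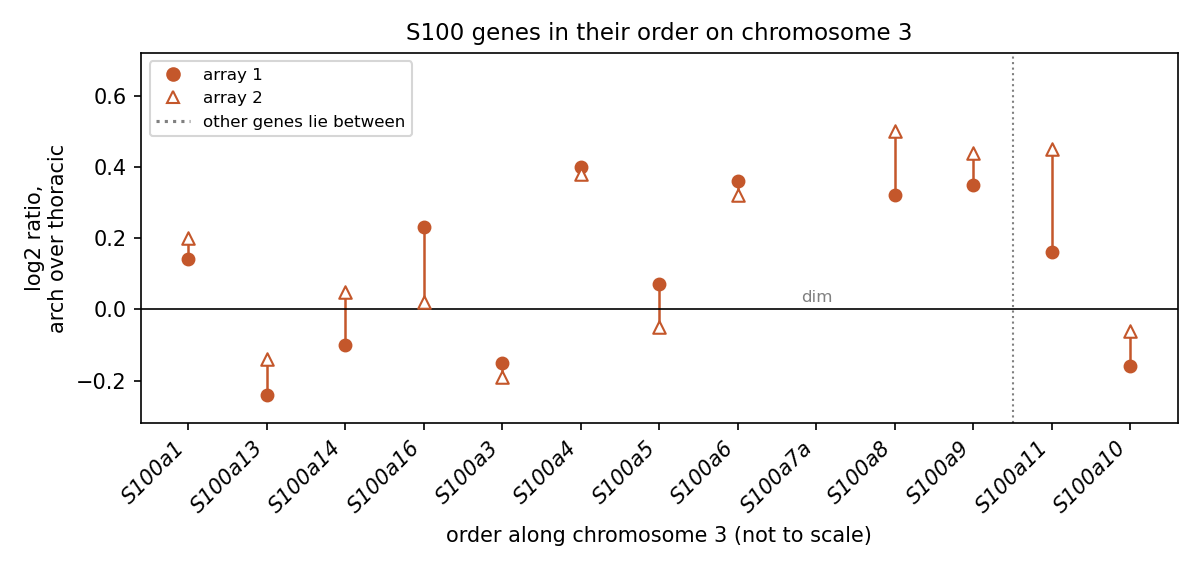
S100 genes stand in their order along chromosome 3 (not to scale), the vertical axis being the log2 ratio of arch over thoracic; circles are array 1, triangles array 2, and the dotted line marks where other genes lie between. S100a3 (-0.17) and S100a5 (0.01) lie on either side of S100a4 (0.39), S100a8 (0.41) and S100a9 (0.39) are alike, and S100a7a was too dim to compare.

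On the 4 channels 76.5% to 82.6% of gene spots were well above background, and none of the members sat on a saturated spot.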

How the data were processed

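The deposited scanner tables give each spot's mean signal and local background as intensity values, which the authors left without normalisation. Per the file headers the scanner software was Agilent Feature Extraction 8.1.1.1; version 9.1.1.1 is given in the submitters' processing notes. The deposited log ratio, red over green, is a log10 value that the scanner software corrected for background and dye; the authors' series table holds log10 ratios that repeat it, turned to arch over thoracic (correlations of 1.0 and 0.9998, column medians of 0.0). limma 3.58.1 (R 4.3.3) turned the deposited intensities into log2 ratios: normexp background correction with an offset of 50, then loess, with control spots at weight 0. Control and outlier spots were left out, spots of a probe averaged, array 1 turned, and both arrays averaged. The offset pulls the ratios of dim probes towards 0. A probe passed the filter when well above background in the same RNA on both arrays (32176 of 41161). Each gene was represented by its brightest passing probe; normalised signals are on this scale, offset included, after the arrays' mean brightness was quantile-matched (Aquantile). Symbols came from RefSeq GRCm38.p6. Steps were tested on simulated arrays with a constant dye factor, which could not check the removal of a dye bias that changes with brightness. Members, gene lists and tests were chosen with earlier results of these data known. Every member may be named; list genes are named if past 1.5-fold or if a partner of a member, and Ngp, Camp and Elane as markers not compared. No p-value was computed: there is 1 pool per segment, and the number of arrays limits the precision.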

Additional observations from a re-analysis of the deposited data

How the results depend on the processing

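Results were recomputed under 11 alternatives. The counts past the 2-fold rule were 0 in both directions under all of them. The count past 1.5-fold in arch, 1 (Anxa8), was 0 without loess and 1 otherwise. The S100 median of 0.08 was 0.15 with the deposited ratios and with the authors' series table. The annexin median of 0.12 stayed at 0.12 without an offset and without background subtraction, was 0.10 with the median over a gene's probes and 0.04 without loess. With either array left out, the S100 median ranged from 0.04 to 0.12, the annexin median was 0.13, and the counts were unchanged at 0, 0 and 1. Outside the arrays taken singly, Anxa1 (-0.05) and Anxa2 (-0.03) changed sign without loess, and Anxa4 (0.01) with the median over probes; their main values were under 0.15 in size. Among the members that kept the direction of their mean under every alternative were S100a8, S100a9, S100a3, S100a13 and S100b. Their ranges were 0.32 to 0.54, 0.35 to 0.44, -0.21 to -0.15, -0.30 to -0.14 and -0.43 to -0.27. No paired analysis was possible because both arrays hold the same pair of pools and no test was made. Signals near the negative controls limit S100a5, S100a14, S100g, Anxa9, Anxa10 and Anxa13.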
